A study of Homo sapiens with 18 samples.

Results

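ANKRD1, CTGF, CYR61 and AMOTL1 are 4 genes tied to the Hippo pathway, the first 3 as its best known targets, and they were 4 of the 3647 distinct genes that the authors' deposited tables of drug-treated Cal51 cells list. The genes were chosen by name, with their measured response known: a table lists a gene where the authors' absolute log2 fold change against DMSO was above 1 and their adjusted p was under 0.05. The difference from DMSO is therefore a description here, and no p is given for it. Cal51 is an established cell line from a human breast carcinoma. The series holds 18 RNA sequencing libraries in 6 groups of 3, of which 12 are used: Cal51 cells treated for 8 h with DMSO, the solvent control, with fenofibrate, a fibrate that activates the nuclear receptor PPARα, with ezetimibe, which inhibits the sterol transporter NPC1L1, or with fenofibrate plus ezetimibe, called both drugs below. The labels give no dose and no genetic change for these groups. Nothing in the labels says that the 3 libraries of a group came from separate cultures, so the spread between them may be technical. The PKM2 knockout cells and their control (6 libraries) are not analysed here.

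The Hippo pathway is a kinase cascade that keeps the transcriptional coactivators YAP1 and WWTR1 (TAZ) out of the nucleus. When the cascade is off, for example in cells that are spread out or on a stiff matrix, YAP1 and WWTR1 enter the nucleus and bind TEAD factors at DNA. CTGF and CYR61, secreted proteins of the CCN family that bind integrins and the matrix, and ANKRD1, an ankyrin repeat cofactor best known from heart muscle, are the usual readouts of that binding. AMOTL1 is a junction and actin scaffold of the angiomotin family that binds YAP1. All of these genes also respond to other inputs, such as SRF with its actin-sensing cofactors and, for CTGF, TGF-β.

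The DNA just before the start sites is shown first because the letters GGAATG, the core that TEAD factors bind, are found there in some of the genes and not in others. RefSeq promoter entries on GRCh38.p14 matched 3 of the 4 genes, not CYR61. Each sequence below is the 250 bases before the RefSeq start site, 5′ to 3′ on the strand of the gene, with GGAATG or its reverse complement CATTCC in capitals. CTGF (RefSeq CCN2) lies at chr6:131951373-131951622 on the minus strand, ANKRD1 at chr10:90921088-90921337 on the minus strand and AMOTL1 at chr11:94768106-94768355 on the plus strand.
CTGF: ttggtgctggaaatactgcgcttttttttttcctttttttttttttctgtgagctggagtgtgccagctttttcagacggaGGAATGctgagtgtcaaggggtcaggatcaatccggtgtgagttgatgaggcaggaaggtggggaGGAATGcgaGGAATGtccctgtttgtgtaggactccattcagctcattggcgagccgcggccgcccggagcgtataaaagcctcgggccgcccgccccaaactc
ANKRD1: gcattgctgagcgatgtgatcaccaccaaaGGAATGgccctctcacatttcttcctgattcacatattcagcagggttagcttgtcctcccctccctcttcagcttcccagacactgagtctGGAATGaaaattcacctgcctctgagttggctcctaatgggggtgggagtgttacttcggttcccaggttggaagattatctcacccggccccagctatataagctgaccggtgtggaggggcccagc
AMOTL1: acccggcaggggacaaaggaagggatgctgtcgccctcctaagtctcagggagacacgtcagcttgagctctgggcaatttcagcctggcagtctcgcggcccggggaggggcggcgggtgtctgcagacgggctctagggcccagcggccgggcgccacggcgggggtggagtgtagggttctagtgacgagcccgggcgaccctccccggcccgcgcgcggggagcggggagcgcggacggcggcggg

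CTGF holds GGAATG 3 times, from -169, from -104 and from -95 counted from the start site, so that the last 2 are separated by 3 bases. ANKRD1 holds it at 2 places, from -220 and from -128, and AMOTL1 at 0 places in this window. All of these matches are on the strand of the gene. Of the 35116 promoter entries from RefSeq, 11.9% hold at least 1 match on either strand, 0.940% at least 2 and 0.0826% at least 3 (29 entries). These entries belong to 27305 genes. For each gene named here only its first entry was searched, so other start sites of it are not covered. The entries of genes listed as higher with both drugs held at least 1 match in 9.62% of 1819, and those of genes listed as lower in 8.70% of 1564. At least 2 matches were held by 1.04% of the entries of higher genes and 0.512% of those of lower genes, and at least 3 by 0.165% and 0.0639%. The share with at least 1 match was thus lower among higher genes than among all promoters. Among higher genes the shares with at least 2 and 3 rest on few entries (3 entries with at least 3). Those entries include ANKRD1 and CTGF, which were chosen for being listed, so nothing is read from these 2 shares. No test of the shares was run. The AP-1 letters TGANTCA were found in ANKRD1 alone of the 3 genes (from -195, 6.57% of all entries with at least 1), and the TATA letters TATAAA in CTGF alone (from -32, 10.7%). Both were searched on both strands, and no match overlapped a GGAATG. Only these exact letters were counted, so the run tatataag near the start site of ANKRD1 was not. The RefSeq start site of AMOTL1 lies 61925 bases inside the gene as GENCODE 29 draws it, because the annotated gene includes upstream transcripts, and that of ANKRD1 lies 189 bases inside. A match is a description of letters and not of a bound site.

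**Figure D1:**
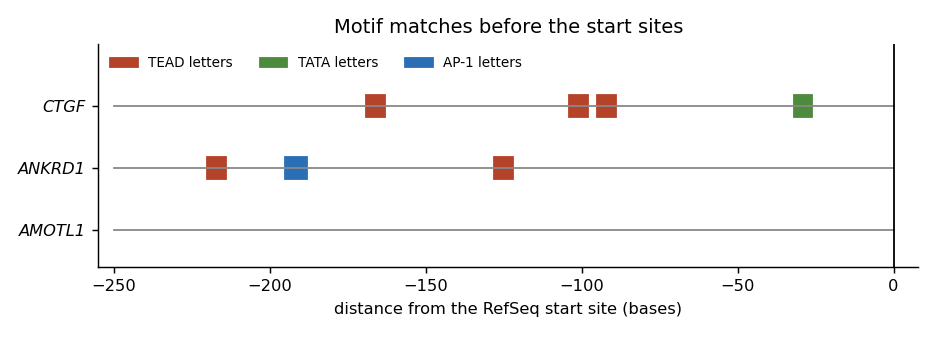
Positions of the TEAD letters (GGAATG), the AP-1 letters and the TATA letters before the RefSeq start site (x axis, distance in bases, 0 at the start site) of CTGF, ANKRD1 and AMOTL1. CTGF shows 3 TEAD matches, ANKRD1 2 and AMOTL1 0.

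The gene table gives all 4 genes on hg38 with the coordinates of GENCODE 29. CTGF (ENSG00000118523) spans chromosome 6, 131948176 to 131951373, in 5 exons, and CYR61 (ENSG00000142871) spans chromosome 1, 85580761 to 85583962, also in 5 exons. ANKRD1 (ENSG00000148677) spans chromosome 10, 90912096 to 90921276, in 9 exons. AMOTL1 (ENSG00000166025) is by far the longest of them, at chromosome 11, 94706431 to 94876753, with up to 13 exons and 3 coding transcripts. The gene lengths behind the counts were 2339 bases for CTGF, 2455 for CYR61, 1979 for ANKRD1 and 10035 for AMOTL1. An antisense gene, AL133346.1, overlaps the 5′ end of CTGF, and the antisense genes AP000943.3 and AP002383.2 overlap AMOTL1. None of the 3 antisense genes was listed with both drugs. No label states whether the counting used strand, so reads of such partners cannot be told apart from reads of the gene.

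Values are read counts divided by 1 factor per library, set by the authors. In the table of both drugs, which lists 3508 genes, the libraries held 2550718 to 3265200 reads in the listed genes, and the total depth is unknown. Replicate 1 of both drugs stood apart from the other libraries of its group. Over the 2303 listed genes with a mean of at least 50, its median absolute log2 difference was 0.28 from replicate 2 and 0.23 from replicate 3, against 0.10 between replicates 2 and 3 and 0.13 to 0.23 between DMSO libraries. The departure followed gene length. In the shortest quartile of those genes the median log2 level of replicate 1 was 0.24 above the mean of the other two libraries, and in the longest quartile it was -0.17. The log2 fold changes with both drugs are therefore also given without replicate 1 of that group, while means and ratios are over all libraries. Of 10 breast epithelial markers GATA3 and KRT7 were listed as higher with both drugs, from low levels (summed 141 to 145 against 20.5 to 39.5 in DMSO). The other 8, EPCAM and CDH1 among them, were not listed, so their levels are not known and the cell type label could not be checked on them. Of 7 fibroblast markers COL1A1, PDGFRA and PDGFRB were listed as lower (summed 624 to 696 against 1971 to 2329). Over all tested genes 10.3% were listed as higher and 7.27% as lower with both drugs. Of 6 immune and 5 endothelial markers 0 were listed with both drugs. With ezetimibe alone GATA3 was listed as higher (53.2 ± 4.91 against 25.1 ± 9.21, SD, n = 3 each). The endothelial marker CDH5 was listed as lower with ezetimibe alone (10.1 ± 3.38 against 26.9 ± 10.3), also at a low level. The part of these marker changes in the results below was not tested. In bulk RNA, fewer cells of a kind and less RNA per cell cannot be told apart.

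All 4 genes were listed as higher with both drugs, and 0 of the 4 were listed with fenofibrate alone or with ezetimibe alone. The background of these lists is 0.835% of genes listed with fenofibrate, 3.47% with ezetimibe and 10.3% listed as higher with both drugs, over numbers of tested genes (12215, 13596 and 19944) that were inferred from the ranks of the deposited p-values. For fenofibrate (17 p-values) and ezetimibe another number fitted the ranks equally well, so these 2 shares are uncertain. The genes were picked with the listing with both drugs in view, so nothing is read from the 4 of 4. A gene missing from a table can have changed by less than the listing threshold, have missed the adjusted p, or not have been tested, so no single-drug level can be given for any of the 4. Whether both drugs differed from either drug alone in these genes could not be tested. The gene nearest the threshold from inside was AMOTL1, with an authors' log2 fold change of 1.18, and genes just outside it are not in the tables.

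CTGF, the connective tissue growth factor, was the most abundant of the 4. With both drugs its normalised read counts were 24947, 22683 and 22990.2 in replicates 1 to 3, and in DMSO they were 6912, 6501 and 7671. All libraries with both drugs lay above all DMSO libraries, and the lowest of them was 2.96 times the highest DMSO value. The means were 23540.1 ± 1228 (SD, n = 3) and 7028 ± 594 (SD, n = 3), a 3.35-fold difference. Fitted with limma over all genes of the table on log2 of the value plus 1, the log2 fold change was 1.75 ± 0.11 (SE), and without replicate 1 of both drugs it was 1.70 ± 0.09. CTGF ranked 54th of the 3508 listed genes by DMSO level and 10th by level with both drugs, and 8th by the number of normalised reads gained (16512).

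CYR61, a cysteine-rich angiogenic inducer and the closest relative of CTGF in this set, had a very similar course. Its normalised read counts were 20852, 19063 and 19924 with both drugs and 6483, 6645 and 6225 in DMSO. The groups did not overlap, and the DMSO libraries differed less from each other (coefficient of variation 3.28%) than those of CTGF (8.45%). The means were 19946 ± 895 and 6451 ± 212 (SD, n = 3 each), 3.09-fold apart, and the log2 fold change was 1.63 ± 0.10 (SE). Without replicate 1 of both drugs it was 1.60 ± 0.07. CYR61 ranked 10th of the listed genes by normalised reads gained (13495).

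ANKRD1, the ankyrin repeat cofactor, had the largest fold change of the 4 from a far lower level. With both drugs its normalised read counts were 3970 (3969.8), 3788 and 3875, and in DMSO they were 549, 489 and 533. The 3 libraries with both drugs differed little from one another (coefficient of variation 2.35%), and each was at least 6.90 times each DMSO library. The means were 3878 ± 91 and 524 ± 30.8 (SD, n = 3 each), 7.41-fold apart. The log2 fold change was 2.89 ± 0.09 (SE) with all libraries and 2.87 ± 0.08 without replicate 1 of both drugs. By fold change ANKRD1 ranked 509th among the 2058 genes listed as higher, and by normalised reads gained (3354) it ranked 70th of all listed genes.

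AMOTL1, the scaffold, had the smallest difference and the widest relative spread. Its normalised read counts were 1031, 1207 and 1116 with both drugs and 438, 537 and 504 in DMSO. The groups did not overlap, with the lowest library with both drugs at 1.92 times the highest DMSO library. The means were 1118 ± 88 and 493 ± 50.6 (SD, n = 3 each), 2.27-fold apart, with a coefficient of variation of 7.87% and 10.3%. The log2 fold change was 1.18 ± 0.12 (SE), and without replicate 1 of both drugs 1.24 ± 0.11. By fold change it ranked 1741st among the 2058 genes listed as higher. These sizes rest on the authors' scaling. With libraries scaled by the median ratio of the listed genes, all log2 differences shift by -0.81, and lower genes move further down. The differences are then 2.08 in ANKRD1, 0.94 in CTGF, 0.82 in CYR61 and 0.38 in AMOTL1. That scaling takes the median listed gene as little changed, but 2058 of the 3508 listed genes were higher. With such a list a downward shift comes with that scaling. Which scaling lies nearer the true levels was not tested.

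**Figure D2:**
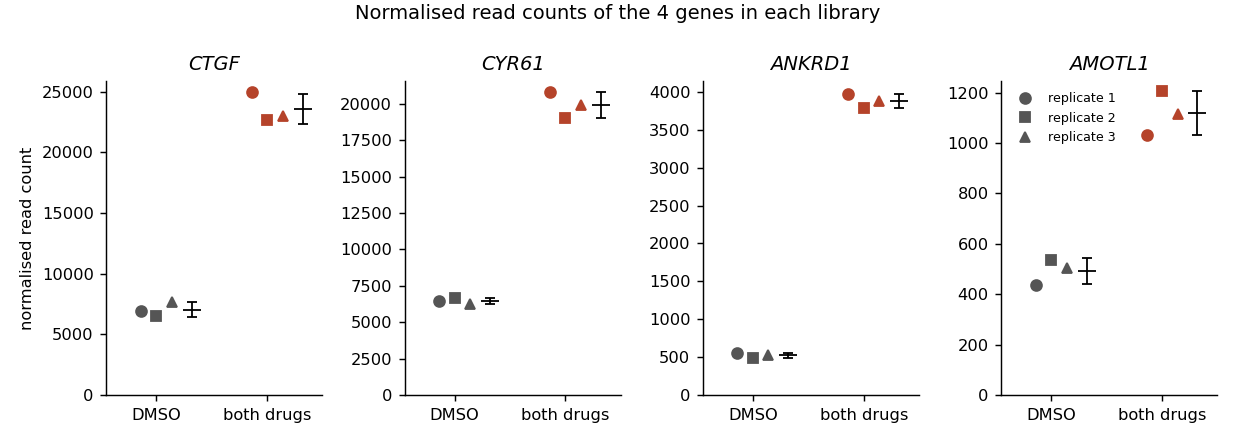
Normalised read counts (y axis, from 0, a scale of its own for each gene) of CTGF, CYR61, ANKRD1 and AMOTL1 in the 3 DMSO libraries and the 3 libraries with both drugs; symbols mark the replicate and the black mark with bars is the mean ± SD. In each gene all libraries with both drugs lie above all DMSO libraries, and replicate 1 of both drugs is the highest of its group in CTGF, CYR61 and ANKRD1 and the lowest in AMOTL1.

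Among the libraries with both drugs the order was the reverse in AMOTL1 of that in the short genes. Replicate 1 was above the mean of replicates 2 and 3 by 0.13 in CTGF, 0.10 in CYR61 and 0.05 in ANKRD1 on the log2 scale, and in AMOTL1 the difference was -0.17. These departures have the sign of the length pattern over all listed genes (0.24 in the shortest quartile, up to 3151 bases, and -0.17 in the longest, from 7149 bases). CTGF, CYR61 and ANKRD1 fall in the shortest quartile by length and AMOTL1 in the longest. In DMSO the same pattern was not seen for replicate 1, whose medians were 0.01 in the shortest quartile and -0.01 in the longest, while AMOTL1 was again lowest there (-0.25). The part of gene length in the differences from DMSO was not tested, but without replicate 1 of both drugs the log2 fold changes of the 4 genes moved by less than their SE.

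**Figure D3:**
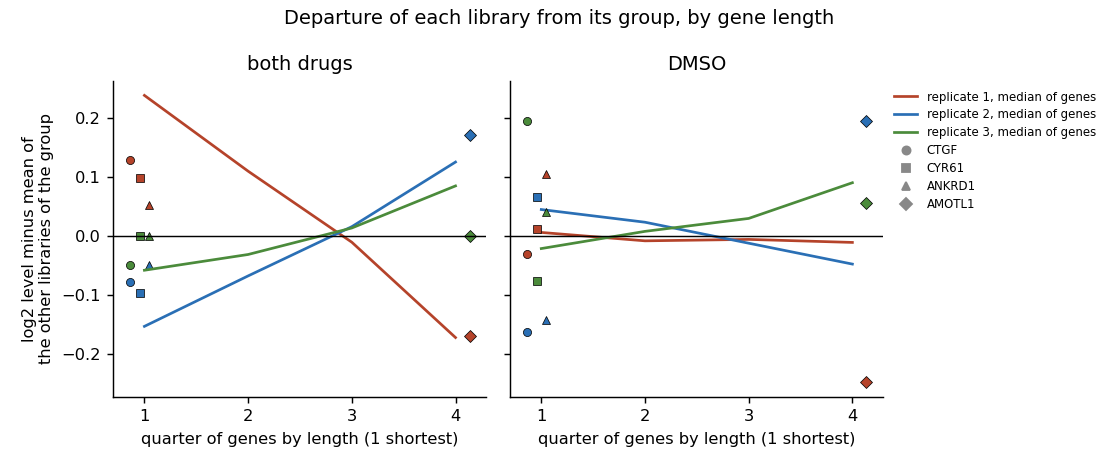
Log2 level in a library minus the mean of the other libraries of its group (y axis) by quartile of gene length (x axis, 1 shortest), as the median of 2303 listed genes (lines) and for CTGF, CYR61, ANKRD1 and AMOTL1 (symbols), with both drugs on the left and DMSO on the right. Replicate 1 of both drugs falls from 0.24 to -0.17 with length, and the 4 genes take the same sign as their quartile there.

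Levels of different genes compare only per length. Divided by gene length in kilobases, the mean normalised read count in DMSO was 3005 ± 254 (SD, n = 3) for CTGF, 2628 ± 86.3 for CYR61, 265 ± 15.6 for ANKRD1 and 49.1 ± 5.05 for AMOTL1. With both drugs the values per kilobase were 10064 ± 525, 8125 ± 364, 1959 ± 46 and 111 ± 8.77 in the same order. The order of levels was thus the same in both groups. Before division by length ANKRD1 and AMOTL1 overlapped in DMSO. CTGF and CYR61 were the closest in level. Their ratio per kilobase was 1.24 ± 0.02 with both drugs and 1.15 ± 0.14 in DMSO (SD, n = 3 each), where it ranged from 1.03 to 1.29, so the DMSO range contains the range with both drugs (1.21 to 1.26). CTGF was above CYR61 per kilobase in all 6 libraries. The ratio of CTGF to ANKRD1 went from 11.4 ± 0.77 in DMSO to 5.13 ± 0.16 with both drugs, with no overlap between libraries. CYR61 to ANKRD1 went from 9.96 ± 0.85 to 4.15 ± 0.09, also with no overlap. ANKRD1 thus gained relative to both secreted proteins, while the ratio between those overlapped between the groups. ANKRD1 to AMOTL1 went from 5.45 ± 0.87 to 17.7 ± 1.81, and CTGF to AMOTL1 from 61.7 ± 8.53 to 90.9 ± 11.8, neither with overlap.

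**Figure D4:**
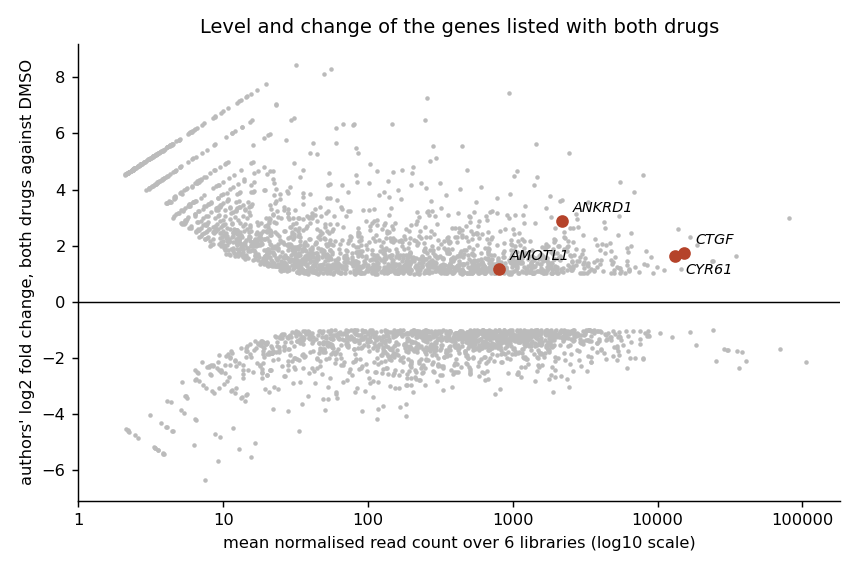
Authors' log2 fold change with both drugs against DMSO (y axis) against the mean normalised read count over the 6 libraries (x axis, log10 scale) for all 3508 listed genes (grey) and the 4 genes (red). CTGF and CYR61 lie at the high end of the levels, ANKRD1 and AMOTL1 further left, and AMOTL1 close to the listing threshold of 1.

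Genes whose course over the 6 libraries was most like that of each of the 4 were picked by the Euclidean distance between log2 levels after subtraction of the gene's DMSO mean, among 2098 other protein-coding listed genes with a mean of at least 50. With 3 libraries against 3 such a distance mostly reflects a like fold change, and it is a description with no p. Nearest to ANKRD1 were CYP4F11, a cytochrome P450 (distance 0.14), and HSPA5, the BiP chaperone of the secretory pathway (0.17). Nearest to CTGF were SLC1A4, a neutral amino acid transporter (0.10), CALCOCO1 (0.13) and HSP90B1, another chaperone of the endoplasmic reticulum (0.20). CYR61 had ABHD4, GCC1 and ZFAND3 at 0.11 to 0.12, and AMOTL1 had TAF1A, OTUD1 and CDC42EP3 at 0.15 to 0.17. None of the 4 genes was among the 3 nearest to another. CTGF and CYR61 were 0.32 apart, with 27 candidates closer to CTGF, while ANKRD1 was 1.98 from CTGF and 2.98 from AMOTL1.

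The wider list of genes used as readouts of YAP1 and WWTR1 went in both directions. Of its 22 genes 6 were listed as higher with both drugs and 2 as lower, or 27.3% and 9.09%, against a background of 10.3% listed as higher and 7.27% as lower. The median authors' log2 fold change of the 8 was 1.75, against 1.17 over all 3508 listed genes and 1.82 over the 2058 listed as higher. CTGF, CYR61 and ANKRD1 are 3 of the 6 and were chosen for being listed. Neither the list's count nor the median thus stands apart from that choice. Of the other 19 genes 3 were listed as higher and 2 as lower. Among these 3 is RBMS3, which had few reads. With a minimum mean of 10, 5 of the 22, in place of 6, were higher by more than 1. With median-ratio scaling 3 of the 22, in place of 6, were higher by more than 1 on the log2 scale. GADD45A, a growth arrest gene that stress responses also induce, had the largest difference (10433 ± 211 against 538 ± 32.6, SD, n = 3 each; log2 4.28 ± 0.09 SE, and 4.28 ± 0.08 without replicate 1 of both drugs). NUAK2, an AMPK-related kinase, went from 569 ± 36.3 to 1922 ± 195 (log2 1.75 ± 0.11, and 1.67 ± 0.09 without that replicate), close to the change of CTGF. Counting both strands, the RefSeq promoter of NUAK2 holds the TEAD letters at 2 places, and those of RBMS3, CCDC80 and IGFBP3 at 0. RBMS3 had 3 to 14 reads with both drugs and 0 to 2 in DMSO, too few for a fold change to be given. CCDC80, a secreted matrix protein, was lower (408 ± 30.04 against 2039.7 ± 50.6; log2 -2.32 ± 0.10, and -2.37 ± 0.08 without it), as was IGFBP3, which binds insulin-like growth factors (1813 ± 42.1 against 4606 ± 194; log2 -1.34 ± 0.09, and -1.34 ± 0.07 without it). The other 14, among them AMOTL2, LATS2, AXL, F3 and PTPN14, were not listed. With fenofibrate or ezetimibe alone 0 of the 22 were listed.

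Few genes of the cascade itself were listed. Of 35 kinases, scaffolds and junction proteins upstream of YAP1 and WWTR1, 2 were listed as higher and 1 as lower (5.71% and 2.86%, both under the background of 10.3% and 7.27%), and with median-ratio scaling 0 were higher by more than 1. The higher ones were AMOTL1 and RASSF1, a scaffold that binds the Hippo kinases (1414 ± 249.8 against 535 ± 51.6; log2 1.39 ± 0.14, and 1.26 ± 0.11 without replicate 1 of both drugs). The lower one was MOB1A, the activating partner of the LATS kinases (1348 ± 143 against 3255 ± 292; log2 -1.27 ± 0.11, and -1.19 ± 0.09 without it). The kinases STK3, STK4, LATS1 and LATS2 were not listed. Of the 10 transcriptional effectors 0 were listed as higher and 1 as lower, TEAD2, whose libraries were at 357, 289 and 299 with both drugs and 986, 1030.1 and 872 in DMSO (log2 -1.61 ± 0.13, and -1.70 ± 0.10 without replicate 1). YAP1, WWTR1 and the other TEAD genes were not listed, and protein location, through which the pathway mainly acts, was not measured here. The relatives of the 4 genes were not listed with both drugs: neither AMOT nor AMOTL2, neither ANKRD2 nor ANKRD23, and of the CCN family only CTGF and CYR61 of 6.

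**Figure D5:**
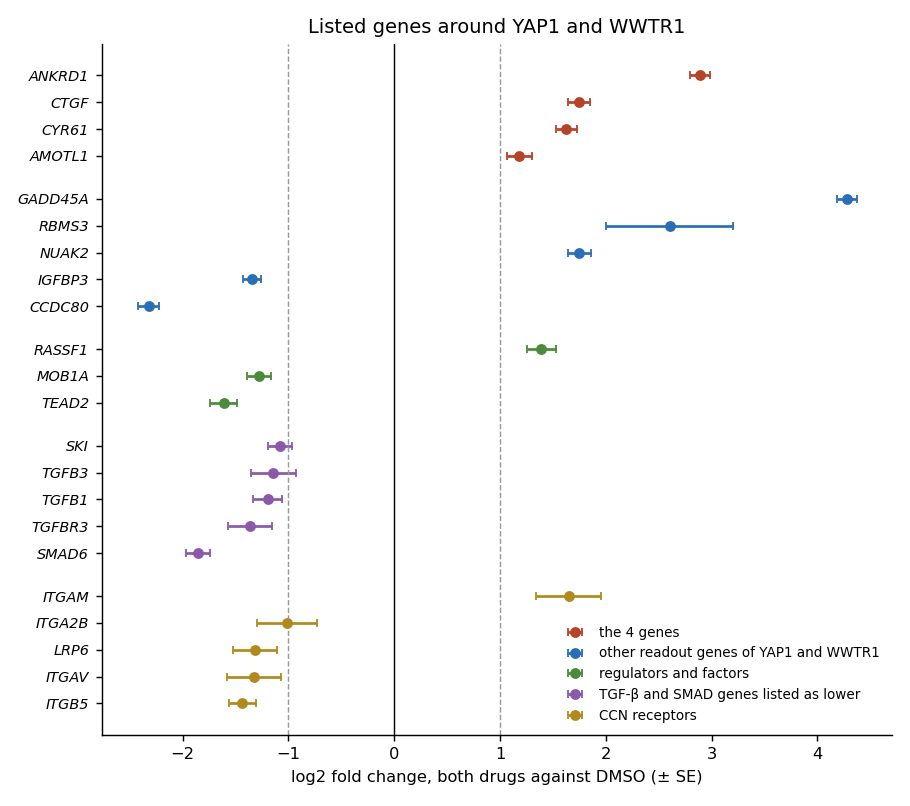
Log2 fold change (x axis, limma on log2 of the value plus 1, bars are SE) with both drugs against DMSO for the listed genes of each group, and of the TGF-β genes those listed as lower (y axis); dashed lines mark the authors' listing threshold of 1 in either direction. The 4 genes lie between 1.18 and 2.89, other readout genes lie on both sides, and 4 of the 5 listed CCN receptors lie below 0. RBMS3 is drawn, but it had too few reads for its value to be read.

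Of 11 integrin and LRP genes that encode receptors for the secreted CCN proteins, 4 were listed as lower and 1 as higher (36.4% and 9.09%, against 7.27% and 10.3%), and 6 were not listed. ITGAV, the integrin αv chain that pairs with several β chains to bind CTGF and CYR61, was at 4205, 9438 and 8730 (8729.5) with both drugs and 17141, 16139 and 19585 in DMSO. Its lowest library was replicate 1 of both drugs, and the log2 fold change of -1.32 ± 0.26 was -0.95 ± 0.10 without it. LRP6, a WNT coreceptor, had the same pattern (825, 1594 and 1487 against 3025 to 3258), with -1.31 ± 0.21 and -1.01 ± 0.07 without that library. ITGB5, a partner of ITGAV, was lower in all libraries (868 ± 139.7 against 2333 ± 157; log2 -1.44 ± 0.13), and -1.56 ± 0.08 without replicate 1. ITGA2B (36.9 ± 11.1 against 74.4 ± 15.1) and the only higher one, ITGAM (57.8 ± 10.2 against 18.2 ± 5.86), were at low levels. By the limma fold change, 4 of these genes were lower by more than 1 on the log2 scale with all libraries and 2 without replicate 1 of both drugs, since ITGAV and ITGA2B then fell short of it.

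Actin and TGF-β signalling are further inputs of CTGF, CYR61 and ANKRD1. Of 20 genes of SRF, its MRTF cofactors and their actin-linked targets, such as ACTA2, TAGLN, MYL9 and VCL, 0 were listed with both drugs, where the background is 10.3% higher and 7.27% lower, and 0 with either drug alone. Of 16 genes of TGF-β signalling 5 were listed as lower with both drugs (31.3%), against a background of 7.27%. The lower genes were the ligands TGFB1 (592 ± 116 against 1343 ± 95.4; log2 -1.20 ± 0.14, and -1.35 ± 0.09 without replicate 1 of both drugs) and TGFB3, the coreceptor TGFBR3, the inhibitory SMAD6 (689 ± 58.1 against 2497 ± 271; log2 -1.85 ± 0.11, and -1.88 ± 0.11 without it) and the repressor SKI. SKI, at -1.08 ± 0.11, was at -0.97 ± 0.08 without replicate 1 of both drugs. TGFBR3, at -1.36 ± 0.21, was at -1.07 ± 0.09 without that library. Its values with both drugs were 354, 692 and 619 in replicates 1 to 3. TGFB3 was at a low level (61.5 ± 9.5 against 137 ± 22.5; log2 -1.14 ± 0.21, and -1.26 ± 0.21 without replicate 1).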

How the data were processed

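RNA of 12 Cal51 libraries was analysed from 3 deposited tables. Builds and tools in the submitters' processing notes are hg38, featureCounts 1.5.0-p3, HISAT2 2.0.5 and fastp. What made the authors' comparison was not given in the sources used here. Per the file headers, each table holds a normalised signal per library, the authors' log2 fold change and p-value, and the gene length. The deposited signal proved to be whole reads divided by 1 factor per library (0.912 to 1.09 with both drugs; 100% of values whole within 0.001).

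Groups came from the sample titles. Log2 fold changes with SE are from limma 3.58.1 (R 4.3.3, with trend) on log2 of the value plus 1, fitted over all genes of a table, with no further filter. The code was tested on simulated data. Since genes are in a table only if the authors called them, a fit calls nearly all: limma and edgeR 4.0.16 (quasi-likelihood, on the recovered reads) each called 3508 of 3508 genes with both drugs. Distances and promoter letters were computed in Python 3.11.15. Genes named were the 4 genes, every listed gene of 9 pathway lists, and the 3 nearest genes by distance. A result that falls under both the TGF-β list and the nearest genes is not reported here. The 4 genes and the lists were chosen with earlier results of these data known. Alternatives were other pseudocounts, a low-value filter, a replicate block, edgeR, median-ratio scaling and leaving out each library.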

Additional observations from a re-analysis of the deposited data

How the results depend on the processing

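The 4 genes kept their direction under all 12 alternatives, of which the replicate block cannot change a fold change in this balanced design. Scaling the libraries by the median ratio of the listed genes, in place of the authors' factors, lowered all log2 differences with both drugs by a shared shift of -0.81, to 2.08 in ANKRD1, 0.94 in CTGF, 0.82 in CYR61 and 0.38 in AMOTL1. This scaling takes the median listed gene as little changed, and all genes of the table were listed for having changed. Under it 3 of the 22 readout genes, 0 of the 35 upstream genes and 0 of the 11 receptors were higher by more than 1 (6, 2 and 1 with the authors' factors). Leaving out 1 library at a time gave 2.84 to 2.92 for ANKRD1, 1.69 to 1.81 for CTGF, 1.60 to 1.66 for CYR61 and 1.10 to 1.25 for AMOTL1. Pseudocounts of 0.5 and 5, a minimum mean of 10 and edgeR on recovered reads each moved a gene by less than its spread between replicates.

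Deviations from the group mean correlated at 0.09, -0.33 and 0.16 between same-numbered libraries over 2303 genes. Between differently numbered libraries they correlated at -0.33 to 0.34. These values cannot show whether libraries were paired in culture or preparation. With the replicate block the log2 fold changes are the same by design, and only the SE can differ. They were 2.89 ± 0.14 for ANKRD1, 1.75 ± 0.15 for CTGF, 1.63 ± 0.15 for CYR61 and 1.18 ± 0.15 for AMOTL1 (SE). Fits between treated groups were not run, since none of the 4 genes is in more than 1 table. Depth limits RBMS3 and KRT7, which had few reads.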

Other observations

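Within 500 kb on either side of the 4 genes, the listed genes are given as counts, with no background share for such windows. ANKRD1 had 1 listed gene of 15 annotated, HTR7, a serotonin receptor at a mean of 15.8 with both drugs and 2.30 in DMSO. CYR61 had 1 of 19, the long noncoding RNA AC092807.3 on the opposite strand (35.8 against 14.5). CTGF had 0 of 23. AMOTL1 had 2 of 32, which went in opposite directions: SESN3, a stress-induced inhibitor of mTORC1 signalling, was lower (147 against 683), and PIWIL4 was higher at a mean of 10.7.

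Among the listed genes with a mean of at least 50, the share listed as higher with both drugs was 53.1% in the shortest quartile by gene length, which holds CTGF, CYR61 and ANKRD1, then 49.5% and 47.5%, and 45.8% in the longest, which holds AMOTL1.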
